A study of Mus musculus with 87 samples.

Results

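PYHIN and Sp100 family genes encode nuclear and cytosolic sensors of DNA and chromatin, and 8 of them were followed through the response of the mouse ventral midbrain to interferon-γ (IFN-γ): Ifi203, Ifi204, Mndal, Pyhin1 and Aim2 of the PYHIN family, and Sp100, Sp110 and Sp140 of the Sp100 family. The genes were chosen by symbol, and all 8 were rows of the table of sorted nuclei, which lists 48526 genes, and of the table of single nuclei, which lists 48531. Adult male and female wildtype C57BL/6J mice received 40 ng IFN-γ in 400 nL saline, or saline alone, by stereotactic injection into the ventral midbrain, and were sacrificed 6, 24, 48 or 72 h later. Nuclei were sorted by the neuronal antigen NeuN into NeuN− (mostly glial) and NeuN+ (neuronal) wells, with 6 IFN-γ wells in each fraction at each time and 4 saline wells at 6, 48 and 72 h and 6 at 24 h. Single nuclei were profiled at 48 h, from 1 mouse given saline and 2 given IFN-γ. All mice shared the injection, so saline wells are injected tissue and not untouched brain.

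Proteins of the PYHIN family carry a HIN domain, which binds DNA, a pyrin domain, which binds other proteins, or both. Aim2 binds double-stranded DNA in the cytosol and, through the adaptor Pycard, assembles an inflammasome that activates caspase-1. Ifi204 senses DNA in the nucleus and the cytosol and acts on transcription, and Mndal and Pyhin1 are nuclear members of the same gene cluster. Sp100 is a core protein of PML nuclear bodies, and its relatives Sp110 and Sp140 are nuclear proteins of leukocytes that read chromatin. IFN-γ signals through its receptor and Jak kinases, and its target genes carry GAS elements or interferon-stimulated response elements (ISRE), the latter bound by Irf1. Microglia are the resident macrophages of the brain and the cells of this tissue in which such sensors are best known.

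Wells of the NeuN− fraction held 20962 to 301445 UMIs (unique molecular identifiers, each 1 counted transcript) and NeuN+ wells 277113 to 1684374. At the median depth of 110247.5 UMIs a single count is therefore a large step in a NeuN− well, and most members were counted there only a few times. Since every one of the 84 wells is labelled NeuN+, the fraction was read from the list of well barcodes published with the study. The summed level of 4 neuronal markers (Snap25, Rbfox3, Syt1, Meg3) was at least 3749 CPM (counts scaled to the total of the library) in the wells listed as NeuN+ and at most 1670 CPM in those listed as NeuN−. Wells of a group came from a few mice, and the labels do not tie wells to mice, so p-values measure the spread between wells, which may be technical. In these sorted wells fewer cells of a type and less RNA per cell cannot be told apart.

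All 8 genes lie on chromosome 1 in 2 groups (GRCm38, Gencode gene models). The Sp100 family spans Sp110 (chr1:85576899-85598817, − strand), Sp140 (chr1:85600378-85645037, + strand) and Sp100 (chr1:85649988-85709998, + strand). The PYHIN members are Aim2 (chr1:173350879-173466040, + strand), Pyhin1 (chr1:173630917-173647928, + strand, named Ifi209 in newer models), Ifi204 (chr1:173747293-173766943, − strand), Mndal (chr1:173849126-173942491, − strand) and Ifi203 (chr1:173920407-173942672, − strand). The Mndal model runs over Ifi211 and over 22085 bases of Ifi203 on the same strand, with 37 exonic bases in common with Ifi203. Counts were taken from reads near the 3′ end, where Ifi204 and Aim2 shared no stretch of read length with another gene. Such stretches, looked for on either strand, made up 21.4% of the last bases of Mndal transcripts and 45.3% for Pyhin1 (with Ifi214). The shares were 51.6% for Sp110, 49.3% for Sp140, 6.20% for Ifi203 and 5.89% for Sp100. The other genes were not all paralogs, and for Sp140 they included Arhgef12 and the opposite-strand gene Gm17017. Values of Mndal, Pyhin1, Sp110 and Sp140 may therefore be split with other genes and are uncertain in that respect.

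Promoters of Ifi203 and Mndal are shown because they were the only promoters of the 7 members searched with a match to either interferon motif, and because their likeness bears on how far these neighbours can be told apart. The sequences are RefSeq promoters (GRCm38.p6), each 250 bases before to 50 bases after a transcription start, and capitals mark the match to the ISRE pattern, GAAA followed by any 2 bases and GAAA, read on either strand.
Ifi203 promoter 1 (chr1:173942443-173942742, − strand): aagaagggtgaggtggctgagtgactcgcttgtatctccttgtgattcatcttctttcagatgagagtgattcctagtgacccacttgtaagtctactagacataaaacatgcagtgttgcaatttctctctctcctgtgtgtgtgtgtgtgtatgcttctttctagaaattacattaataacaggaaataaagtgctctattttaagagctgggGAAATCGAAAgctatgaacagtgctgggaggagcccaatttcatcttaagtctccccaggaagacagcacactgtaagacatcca
Mndal promoter 2 (chr1:173880138-173880437, − strand): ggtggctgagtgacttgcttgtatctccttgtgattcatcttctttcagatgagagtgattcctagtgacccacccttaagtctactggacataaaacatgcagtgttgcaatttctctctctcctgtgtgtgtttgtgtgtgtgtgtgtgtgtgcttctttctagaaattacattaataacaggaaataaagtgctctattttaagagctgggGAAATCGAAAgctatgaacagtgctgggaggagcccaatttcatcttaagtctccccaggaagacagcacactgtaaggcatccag
Mndal promoter 1 (chr1:173879909-173880208, − strand): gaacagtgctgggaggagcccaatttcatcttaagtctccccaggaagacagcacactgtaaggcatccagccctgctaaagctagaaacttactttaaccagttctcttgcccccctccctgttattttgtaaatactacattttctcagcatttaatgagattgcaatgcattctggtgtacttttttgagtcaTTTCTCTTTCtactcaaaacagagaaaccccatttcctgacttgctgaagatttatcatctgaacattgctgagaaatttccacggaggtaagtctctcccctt
The first 2 hold the same match, GAAATCGAAA, at −35 to −26 in Ifi203 and −36 to −27 in Mndal relative to the start. They had 282 of 289 aligned bases in common (97.6%). The third holds TTTCTCTTTC, the pattern read from the other strand, at −54 to −45. Promoters of 7 of the 8 members, all but Ifi204, were in the RefSeq table, and no window of Pyhin1, Aim2, Sp100, Sp110 or Sp140 held the ISRE pattern. The GAS pattern TTCNNNGAA was in no window of these 7. Across 32851 promoters of this length, 3.44% held the ISRE pattern and 8.30% the GAS pattern. A match of letters is not a site in use, and its absence from a window says nothing about the factor.

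Ifi204 was higher after IFN-γ in both fractions, and its IFN-γ and saline wells did not overlap in 6 of 8 comparisons. In NeuN− wells at 6 h it was at 0, 10.0, 14.5 and 17.1 CPM after saline and at 96.5 (lowest), 161 (median) and 191 CPM (highest) after IFN-γ. At 24 h saline wells had 0, 12.7 and 29.3 CPM (lowest, median, highest) and IFN-γ wells 76.3, 106 and 183 CPM. The groups stood apart at both times, with every IFN-γ well above every saline well. At 48 h saline wells had 0, 0, 8.42 and 19.7 CPM against 13.8, 40.3 and 57.4 CPM, and the groups overlapped. At 72 h they were at 0, 0, 0 and 7.19 CPM against 18.1, 32.3 and 82.1 CPM, again without overlap. Pooled over wells, IFN-γ NeuN− nuclei had 13.1 times the saline level at 6 h (95% counting interval 5.43 to 41.2, from 104 and 5 counts), 11.1 times at 24 h (4.61 to 35.0), 6.36 times at 48 h (1.95 to 32.8, with 3 saline counts) and 25.5 times at 72 h (4.33 to 1034, with 1 saline count).

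NeuN+ wells held far less Ifi204, and the same order of groups. They also held microglial markers, and which of their cells held Ifi204 was not tested. The 6 h saline wells had 0, 0, 0 and 1.17 CPM and the IFN-γ wells 1.12, 3.21 and 7.06 CPM, which overlapped in a single saline well. At 24 h the values were 0, 0.888 and 1.20 CPM after saline and 3.60, 5.89 and 8.29 CPM after IFN-γ. At 48 h they were 0, 0, 0 and 0.614 CPM against 1.76, 2.93 and 9.02 CPM. Saline wells at 72 h had 0, 0, 0.794 and 0.967 CPM and IFN-γ wells 1.43, 3.03 and 3.98 CPM. The groups did not overlap at 24, 48 and 72 h. The pooled ratio at 24 h was 8.73 (3.41 to 28.5, from 35 and 5 counts). The other ratios rest on 1 or 2 saline counts: 10.2 at 6 h (1.67 to 419), 16.4 at 48 h (2.70 to 671) and 5.69 at 72 h (1.39 to 50.0).

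In the edgeR test, in which a call needs an adjusted p below 0.01 and a change of more than 1 on the log2 scale, Ifi204 of NeuN− wells rose at 6 h by 3.55 ± 0.45 (log2 fold change ± SE, adjusted p = 6.9e-08). The filter on low counts was passed there by Ifi204 and Mndal, and both were called, where 7.86% of all genes tested were called higher. Both passed through the IFN-γ wells, with 104 and 84 counts against 5 and 15 after saline, so nothing is read from that count. Without the filter 2 of 7 members tested were called, against 1.70% of genes. At the other times and in NeuN+ wells Ifi204 did not reach the minimum count, so its test comes from the fit without a filter. In that fit Ifi204 rose in NeuN− wells at 24 h (3.45 ± 0.48, adjusted p = 7.7e-11; 2.24% of genes called higher) and at 72 h (4.10 ± 0.81, adjusted p = 2.0e-04; 0.203%). At 48 h it had 2.45 with an adjusted p of 0.0825 and was not called. In NeuN+ wells it rose at 24 h (2.97 ± 0.60, adjusted p = 4.7e-05; 0.950%), while 6 h (2.94, adjusted p = 0.0726) and 48 h (3.53, adjusted p = 0.0271) gave no call. Without IFN-γ well 6 the 72 h call of NeuN− nuclei was lost (3.64, adjusted p = 0.0154), and the estimates of all 10 fits that left out a well ran from 3.64 to 5.70.

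**Figure D1:**
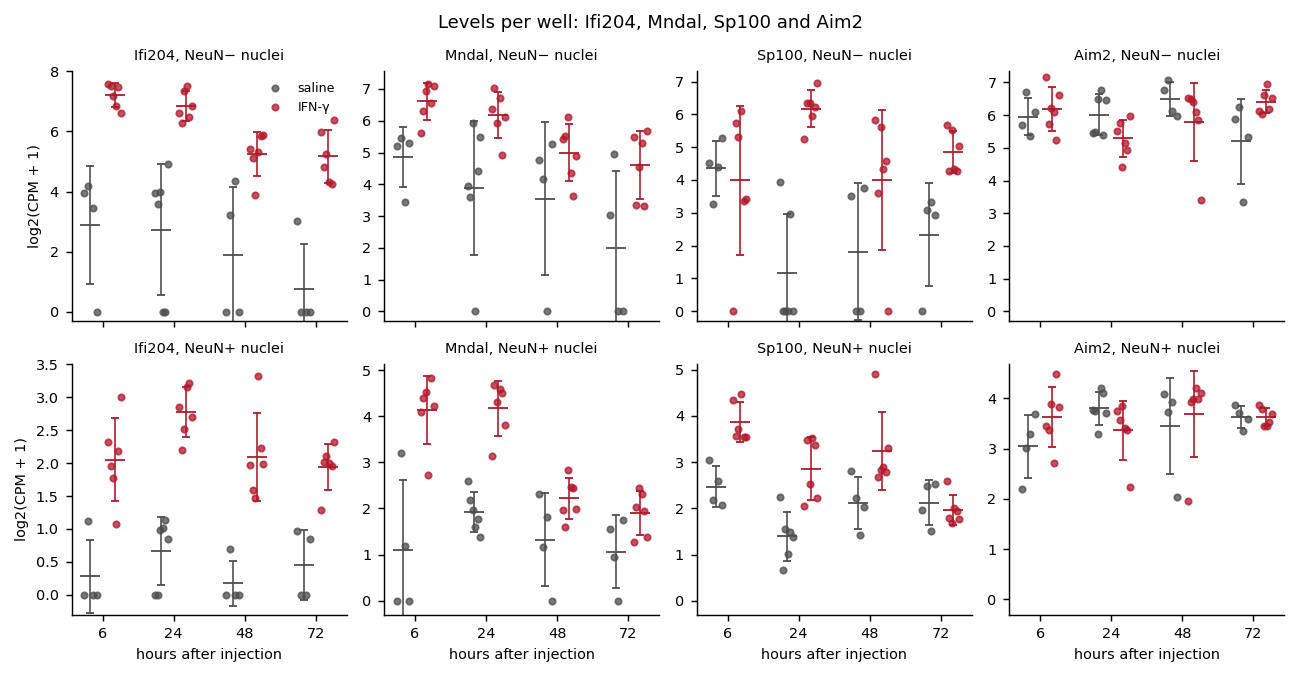
Levels of Ifi204, Mndal, Sp100 and Aim2 in each well as log2(CPM + 1) against hours after injection, with NeuN− wells in the upper row, NeuN+ wells in the lower row, and bars for the mean ± SD of the log2 values. IFN-γ wells of Ifi204 sit above saline wells in NeuN− nuclei at 6, 24 and 72 h, while those of Aim2 overlap the saline wells at every time.

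Mndal rose at 6 h in both fractions. NeuN− saline wells at 6 h had 10.0, 36.3, 38.2 and 42.8 CPM and IFN-γ wells 47.7, 107 and 141 CPM (lowest, median, highest), without overlap. At 24 h saline wells ranged from 0 over 17.5 to 59.3 CPM and IFN-γ wells from 29.4 over 75.4 to 129 CPM. The later times were lower, with 0, 16.8, 25.9 and 37.5 CPM against 11.4, 35.4 and 69.0 CPM at 48 h, and 0, 0, 7.19 and 29.8 CPM against 9.06, 30.2 and 50.1 CPM at 72 h. Groups overlapped at 24, 48 and 72 h. The log2 fold change of NeuN− wells at 6 h was 1.72 ± 0.37 (adjusted p = 2.7e-04). Without the filter the 24 h value was 2.00 ± 0.41 (adjusted p = 4.8e-05), in a fit in which the median of all genes stood at 0.17. Without IFN-γ well 2 the value was 1.65 with an adjusted p of 0.01004, just outside the call, and the other fits that left out a well gave up to 2.36.

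In NeuN+ wells Mndal went from 0, 0, 1.26 and 8.21 CPM after saline to 5.58, 18.9 and 27.2 CPM after IFN-γ at 6 h, where the highest saline well lay above the lowest IFN-γ well. At 24 h it went from 1.60, 2.66 and 5.02 CPM to 7.82, 20.4 and 24.5 CPM, and these groups did not overlap. By 48 h the values were 0, 1.23, 2.52 and 3.98 CPM against 2.03, 3.70 and 6.15 CPM, and at 72 h 0, 0.925, 1.93 and 2.38 CPM against 1.43, 2.97 and 4.42 CPM. Later wells of both treatments therefore overlapped. Pooled ratios were 6.47 (95% counting interval 3.19 to 15.3) at 6 h, 6.95 (4.34 to 11.6) at 24 h, 2.25 at 48 h and 1.81 at 72 h. Mndal was called at 6 h (2.59 ± 0.52, adjusted p = 0.00107), where 1.08% of all genes were called higher. It had passed the filter with 127 counts after IFN-γ and 8 after saline. That call held without the filter. It was lost without saline well 3 (2.32, adjusted p = 0.0101) or 4 (2.04, adjusted p = 0.0168) and under DESeq2 (2.70, adjusted p = 0.0131), and without saline well 2, which held 7 of the 8 saline counts, the estimate was 4.82. At 24 h the fit without filter gave 2.74 ± 0.32 (adjusted p = 2.5e-15), with the call kept in all 12 fits that left out a well.

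Sp100, the PML body protein, was called higher at 24 h in both fractions, in the fit without filter. NeuN− wells at 24 h had 0, 0 and 14.4 CPM after saline, from 2 counts in all, and 37.2, 76.6 and 123 CPM after IFN-γ, from 66 counts. These groups did not overlap, and the pooled ratio was 18.5 (4.93 to 156). At 6 h the values were 8.56, 20.0, 21.8 and 38.2 CPM against 0, 24.2 and 67.8 CPM, with overlap. They were 0, 0, 10.4 and 12.5 CPM against 0, 21 and 56.0 CPM at 48 h, and 0, 6.61, 7.44 and 9.08 CPM against 18.1, 25.5 and 50.1 CPM at 72 h. The wells stood apart at 72 h, although the test gave 2.34 with an adjusted p of 0.167. At 24 h the log2 fold change was 3.97 ± 0.63 (adjusted p = 3.5e-08), called in all 12 fits that left out a well.

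In NeuN+ wells Sp100 was at 3.22, 3.52, 5.05 and 7.22 CPM after saline and at 10.6, 11.5 and 21.2 CPM after IFN-γ at 6 h, without overlap. At 24 h saline wells had 0.594, 1.70 and 3.76 CPM and IFN-γ wells 3.13, 7.03 and 10.6 CPM. The 48 h values were 1.68, 3.08, 3.69 and 5.97 CPM against 5.40, 6.30 and 29.1 CPM, and the groups overlapped at both times. At 72 h both groups lay together, with 1.84, 2.90, 4.62 and 4.76 CPM against 2.21, 2.66 and 5.01 CPM. Pooled ratios ran 3.36, 4.68, 2.29 and 0.794 from 6 to 72 h. Without the filter Sp100 was called at 6 h (1.70 ± 0.41, adjusted p = 0.00178) and at 24 h (2.14 ± 0.48, adjusted p = 3.4e-04). The 6 h call was lost without saline well 2 (1.60, adjusted p = 0.0218), saline well 4 (1.55, adjusted p = 0.0325) or IFN-γ well 1 (1.57, adjusted p = 0.0126), and under DESeq2 (adjusted p = 0.0179).

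Aim2, which starts the DNA-sensing inflammasome, was called in no comparison of IFN-γ with saline. NeuN− wells at 6 h had 40.0, 50.8, 66.8 and 103 CPM after saline and 37.1, 70.3 and 143 CPM after IFN-γ. The medians at 24 h had the other order, with 41.1, 66.0 and 109 CPM against 20.1, 39.7 and 61.4 CPM. At 48 h values were 62.4, 68.8, 109 and 135 CPM against 9.56, 75.2 and 91.1 CPM, and at 72 h 9.08, 39.6, 57.5 and 74.4 CPM against 64.0, 81.8 and 124 CPM. The groups overlapped at every time. The filtered fit tested Aim2 in NeuN− wells at 72 h alone, with 0.84 (log2, adjusted p = 0.216).

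Aim2 in NeuN+ wells was at 3.61, 7.03, 8.84 and 11.8 CPM after saline against 5.58, 11.6 and 21.3 CPM after IFN-γ at 6 h. The 24 h wells had 8.76, 12.5 and 17.4 CPM against 3.69, 10.3 and 13.4 CPM, and at 48 h 3.08, 12.3, 14.3 and 15.9 CPM against 2.91, 14.9 and 17.4 CPM. The 72 h wells had 9.19, 11.1, 12 and 13.5 CPM against 9.94, 11.2 and 13.6 CPM, and the groups overlapped at every time. The log2 fold changes at 6, 24, 48 and 72 h were 0.39, −0.32, 0.34 and −0.04, with adjusted p-values of 0.584, 0.430, 0.706 and 0.964. The background of genes called higher in NeuN+ wells was 1.47% at 24 h, 0.150% at 48 h and 0.351% at 72 h in this fit. Aim2 was the 1 member to pass the filter at 24, 48 and 72 h, and with 0 members called by edgeR and 0 at an unadjusted p below 0.05 the filtered fit holds nothing on the others at those times. DESeq2 called 3 at 24 h (Ifi204, Mndal and Sp100) and 0 at 48 and 72 h, and its shares of genes called higher in NeuN+ wells were 0.845%, 1.34%, 0.113% and 0.217% from 6 to 72 h. In NeuN− wells DESeq2 called 2 members at 6 h, 3 at 24 h and 0 at 48 and 72 h, with 3.70%, 2.99%, 0.506% and 0.314% of genes.

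Pyhin1, Sp110 and Sp140 were counted a few times per group and were called in no comparison of IFN-γ with saline wells. Pyhin1 in NeuN− wells had 1 count after saline and 21 after IFN-γ at 24 h (0, 0 and 11 CPM against 0, 15.7 and 46.0 CPM), a ratio of 11.8 with a counting interval of 1.90 to 487. At 72 h all 4 saline wells were at 0 and the IFN-γ wells at 7.44, 18.3 and 28.6 CPM, from 15 counts. Set against the 3 counts that a total of 0 in a group allows, the pooled level of Pyhin1 was 3.19-fold higher at 72 h. That value leaves out the counting error of the IFN-γ total, so it is not a lower limit. Earlier wells overlapped, with 0, 8.56, 10.0 and 19.1 CPM against 0, 7.18 and 24.3 CPM at 6 h. The log2 fold changes of the fit without filter were 3.05 at 24 h (adjusted p = 0.0254) and 4.37 at 72 h (adjusted p = 0.0922), neither a call. In NeuN+ wells the totals were 0 and 6 counts at 24 h and 0 and 10 counts at 72 h. Set against 3 counts in the same way, these were 2.49-fold and 1.81-fold higher. The order was not held at the other times, with 1 and 3 counts at 6 h (ratio 1.22, 0.0982 to 64.2) and 2 and 0 counts at 48 h, after saline and IFN-γ respectively.

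Sp110 in NeuN− wells at 24 h had 1 count after saline and 24 after IFN-γ (0, 22.4 and 46.0 CPM), a ratio of 13.5 (2.20 to 554) and a log2 fold change of 3.24 with an adjusted p of 0.0105, just outside the call. Its IFN-γ and saline wells overlapped at all 4 times of this fraction, at 24 h with a highest saline well of 12.1 CPM. Sp140 in NeuN− wells at 6 h was at 0, 7.25, 8.56 and 9.55 CPM after saline and at 9.65, 22.3 and 47.7 CPM after IFN-γ, which stood apart by less than the worth of 1 count. At 24 h Sp140 had 3 and 15 counts there. In NeuN+ wells Sp140 went from 8 to 22 counts at 24 h (ratio 3.43, 1.47 to 8.91) and from 1 to 14 at 48 h (8.50, 1.29 to 359), without a call. The 6 h wells had 4 and 16 counts of Sp140 (1.63, 0.5261 to 6.70), and at 72 h the order was the other way, with 8 after saline and 6 after IFN-γ (0.406, 0.116 to 1.33). Ifi203 was listed at 0 in 83 of 84 wells, with 1 count in a single NeuN+ saline well of 72 h, and had no UMI in any nucleus. Most of the Ifi203 gene, 22085 bases, lies within the Mndal model on the same strand, with 37 exonic bases in common. The single-nucleus counts kept only reads unique to 1 gene body, introns included. A count of 0 is therefore no evidence of absent RNA, and whether the counting assigned its reads elsewhere was not tested.

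**Figure D2:**
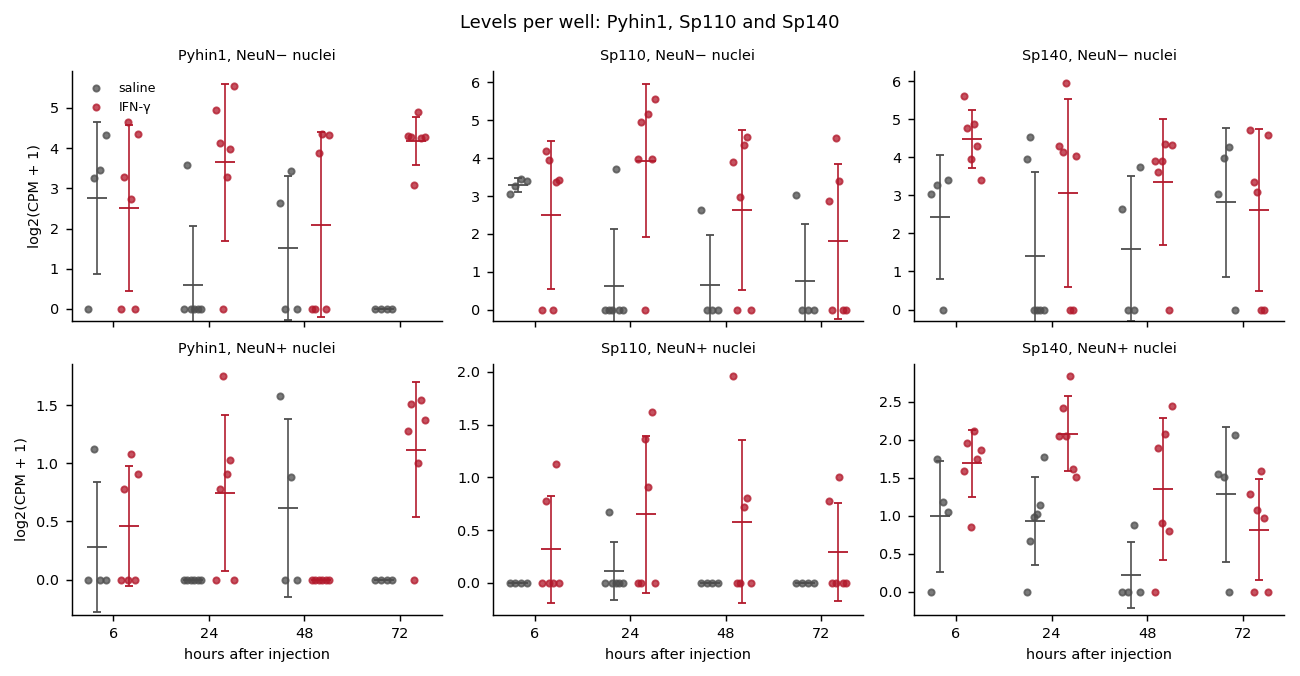
Levels of Pyhin1, Sp110 and Sp140 in each well as log2(CPM + 1) against hours after injection, NeuN− wells above and NeuN+ wells below, with bars for the mean ± SD of the log2 values. Many wells sit at 0, and single counts form the lowest steps above it.

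Counted over members, the wells of the 2 treatments stood apart with IFN-γ higher for Ifi204, Mndal and Sp140 in NeuN− nuclei at 6 h, where 2.19% of the 18486 genes with a count did so. At 24 h Ifi204 and Sp100 did (2.19% of genes), at 48 h no member (1.04%), and at 72 h Ifi204, Pyhin1 and Sp100 (0.851%). In NeuN+ nuclei the members were Sp100 at 6 h (2.81%), Ifi204 and Mndal at 24 h (1.47%), and Ifi204 at 48 h (0.578%) and at 72 h (2.11%). No member stood apart with saline higher, where 2.16%, 1.36%, 0.699% and 0.578% of genes did in NeuN− nuclei from 6 to 72 h and 1.21%, 1.13%, 0.590% and 1.41% in NeuN+ nuclei. Nor was any member called lower by the filtered fit, where 3.87%, 7.38%, 0.17% and 0.377% of genes were in NeuN− wells and 0.288%, 0.266%, 0.0199% and 0.415% in NeuN+ wells. In the filtered fit no member was tested in NeuN− wells at 24 or 48 h, where 7.22% and 1.23% of genes were called higher, and at 72 h Aim2 was the 1 tested and not called (0.754%). At 48 h the fit without filter called none of the 7 members tested in NeuN− wells (0.244% of genes higher), with 2 members and 1229 of all genes at an unadjusted p below 0.05, and DESeq2 called none either. Without the filter NeuN+ wells had 0 of 7 members called at 48 h (0.142% of genes) and 0 of 8 at 72 h (0.182%), with 4 and 2 members at an unadjusted p below 0.05. The background without the filter in NeuN+ wells at 6 h was 0.571%. Tested against saline wells of all times, 1 member was called in NeuN− wells at 24 h (7.22% of genes), 2 in NeuN+ wells at 6 h (1.16%) and 1 at 24 h (1.55%).

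Markers of other cells moved with the treatment. In NeuN− wells the summed level of 8 microglial markers was 47.7 to 170 CPM after IFN-γ and 420 to 557 CPM after saline at 6 h, and 248 to 376 CPM against 452 to 623 CPM at 48 h. At 24 h the ranges were 250 to 349 and 326 to 572 CPM, and at 72 h 470 to 558 and 370 to 463 CPM. Siglech, a gene of resident microglia and 1 of these markers, averaged 0.809 CPM after IFN-γ and 72.3 CPM after saline at 6 h. In the same 6 h wells Ifi204 was higher after IFN-γ while these markers were lower. The summed level of oligodendrocyte markers was 2347 to 2944 CPM at 24 h after IFN-γ and 7044 to 8623 CPM after saline. Monocyte and macrophage markers had medians of 18.9, 38.3, 35.5 and 33.8 CPM after IFN-γ from 6 to 72 h and 32.6, 24.9, 16.1 and 30.6 CPM after saline, with overlapping ranges. Astrocyte markers were higher after IFN-γ at 24 h in NeuN− wells (1705 to 2267 against 557 to 1207 CPM) and in NeuN+ wells (280 to 307 against 100 to 225 CPM). In NeuN+ wells at 72 h oligodendrocyte markers were at 600 to 700 CPM after IFN-γ against 344 to 418 CPM, and dopamine neuron markers at 452 to 566 against 152 to 252 CPM. Microglial markers were also counted in NeuN+ wells, at 69.8 to 145 CPM after IFN-γ and 78.5 to 103 CPM after saline at 48 h. At 72 h they were at 76.2 to 112 and 93.7 to 117 CPM. The part of these markers and shifts in the members' values was not tested.

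**Figure D3:**
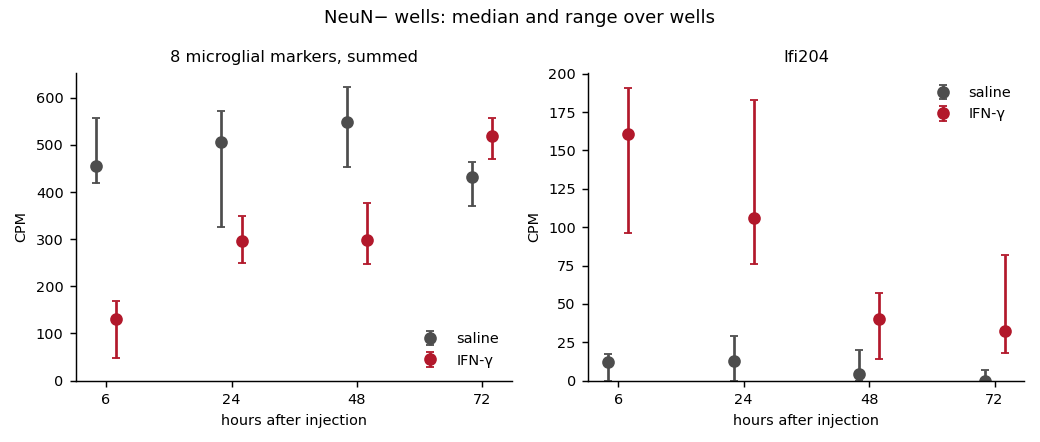
Summed CPM of 8 microglial markers and CPM of Ifi204 in NeuN− wells against hours after injection, with the median as a point and the lowest and highest well as the bar. At 6 h the markers of IFN-γ wells lie at 47.7 to 170 CPM, below saline, where Ifi204 lies at 96.5 to 191 CPM, above saline.

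Without IFN-γ most members were higher in NeuN− than in NeuN+ wells. In the single nuclei described below, Aim2 did not have this order between oligodendrocytes and neurons. In saline wells Aim2 was 2.53 ± 0.20 lower in NeuN+ than in NeuN− wells on the log2 scale (adjusted p = 1.8e-17), the 1 member tested in the filtered fit, where 27.9% of 6393 genes were called lower. Without the filter 6 members were called lower, where 8.59% of 27444 genes were. The log2 differences were −3.09 for Ifi204, −2.75 for Mndal, −2.80 for Pyhin1, −2.20 for Aim2, −3.37 for Sp110 and −1.93 for Sp140. The median of all genes stood at 0.39 in that fit, so relative to it each difference is larger in size. Sp100 had −1.06 with an adjusted p of 0.0342 and was not called. DESeq2 called all 7 lower, and 16.0% of genes.

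Whether the response differed between the fractions was tested by the interaction of treatment and fraction, and no member was called at any time by edgeR or DESeq2. The filtered edgeR fit tested 3, 4, 3 and 3 members from 6 to 72 h and DESeq2 tested 3, 4, 1 and 1. Ifi204 had −0.995 ± 4.04 (log2 ± SE) at 6 h and −0.654 ± 1.87 at 24 h. With so wide a spread the lack of a call does not show equal responses. At an unadjusted p below 0.05 the filtered fit had 1 member, Aim2 at 72 h. At 6 and 24 h, respectively, 0.938% and 1.97% of genes were called with a positive term and 1.59% and 2.25% with a negative one. A positive term is a log2 fold change that is higher in NeuN+ wells, which can also be a fall in NeuN− wells alone. Among the members Sp100 had −2.06 ± 1.08 at 24 h (adjusted p = 0.248). The 6 h and 24 h values of Mndal were both 0.75, with adjusted p-values of 0.594 and 0.491. At 48 and 72 h 0.0803% and 0.254% of genes were called higher and 0.0482% and 0.0934% lower, and again no member.

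From 24 to 72 h after IFN-γ, Mndal fell in both fractions and Ifi204 in NeuN− wells, where Ifi204 still stood apart from saline at 72 h. Ifi204 of NeuN− wells fell by 1.14 ± 0.31 on the log2 scale (adjusted p = 0.00331), the 1 member tested, where 5.96% of genes were called lower. Without the filter Mndal of NeuN− wells had −1.42 (adjusted p = 4.9e-04; 1.5% of genes lower, and 2.77% by DESeq2). In NeuN+ wells the filtered fit tested Aim2 alone, without a call (1.34% of genes lower). Without the filter Mndal of NeuN+ wells fell by 2.76 ± 0.31 (adjusted p = 9.0e-17; 0.823% of genes lower, and 1.21% by DESeq2), a return from a median of 20.4 to 2.97 CPM. From 6 to 24 h no member was called by edgeR or DESeq2, where 5.74% of genes were higher and 3.05% lower at 24 h in NeuN− wells and 1.15% and 0.421% in NeuN+ wells. The values of Sp100 were −0.87 in NeuN+ wells (adjusted p = 0.0309) and 0.89 in NeuN− wells (adjusted p = 0.144). Time points are different mice, and both sexes were used, so time, mouse and sex cannot be told apart.

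Single nuclei placed Ifi204 in microglia and in a cluster of MHC class II nuclei. Of 4699 nuclei, 91 were microglia-like by their markers (29 from the saline mouse, 32 and 30 from the IFN-γ mice). The other cluster, led by Cd74, H2-Aa and H2-Ab1 and left unnamed, had 2, 17 and 24 nuclei. Its summed UMIs in the IFN-γ mice were 44 and 81 for the monocyte gene Ccr2 and 0 and 8 for the microglial gene Siglech, while the microglial class had 111 and 85 UMIs of Siglech and none of Ccr2. No barcode was shared between mice. In a finer clustering the microglia-like nuclei split into 1 cluster with 26, 3 and 2 nuclei of the saline and IFN-γ mice and 1 with 3, 29 and 28, so saline and IFN-γ microglia lay mostly in different clusters.

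In microglia, with these clusters pooled, Ifi204 had 2 UMIs in the saline mouse and 61 and 51 in the IFN-γ mice, or 25.3, 439 and 360 CPM. Ifi204 passed the filter of at least 10 UMIs over the mice through the IFN-γ mice alone, so its call is given as a description. Without that filter it was not called. Its log2 fold change was 3.92 ± 0.67 (adjusted p = 2.1e-06) by edgeR on UMIs summed per mouse, with the lone saline mouse assumed to vary like the IFN-γ mice. It was the 1 member called in any cell class, and 0.680% of 6469 genes were called higher in microglia. DESeq2 gave 3.96 with an adjusted p of 0.115 and called 0 of 1327 genes higher in microglia, so this call depends on the test. In the MHC class II cluster Ifi204 had 416 CPM in the 2 saline nuclei, from 2 UMIs, and 491 and 440 CPM after IFN-γ. With both groups of nuclei summed its value was 3.11, and 1 mouse fell short of the limit.

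Pyhin1 had no UMI in saline microglia and 13 and 12 UMIs in those of the IFN-γ mice (0, 93.6 and 84.8 CPM). The test gave an adjusted p of 0.0692 in microglia. With the MHC class II cluster added, a combination chosen after the data were seen, it had 0, 25 and 29 UMIs and passed the filter through the IFN-γ mice alone, so its call there (adjusted p = 0.00557, where 0.744% of 7795 genes were called higher) is given as a description. Mndal differed from both, with 0, 1 and 3 UMIs in microglia and 6, 26 and 74 in the MHC class II cluster (1249, 456 and 814 CPM). Aim2 was in microglia of all mice at 316, 468 and 403 CPM (log2 fold change 0.45, adjusted p = 0.675). Sp100 was at 253, 202 and 184 CPM (−0.40, adjusted p = 0.763), Sp110 at 101, 72.0 and 120 CPM, and Sp140 at 37.9, 122 and 63.6 CPM (1.26, adjusted p = 0.598). None of these was called, with a single saline mouse.

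**Figure D4:**
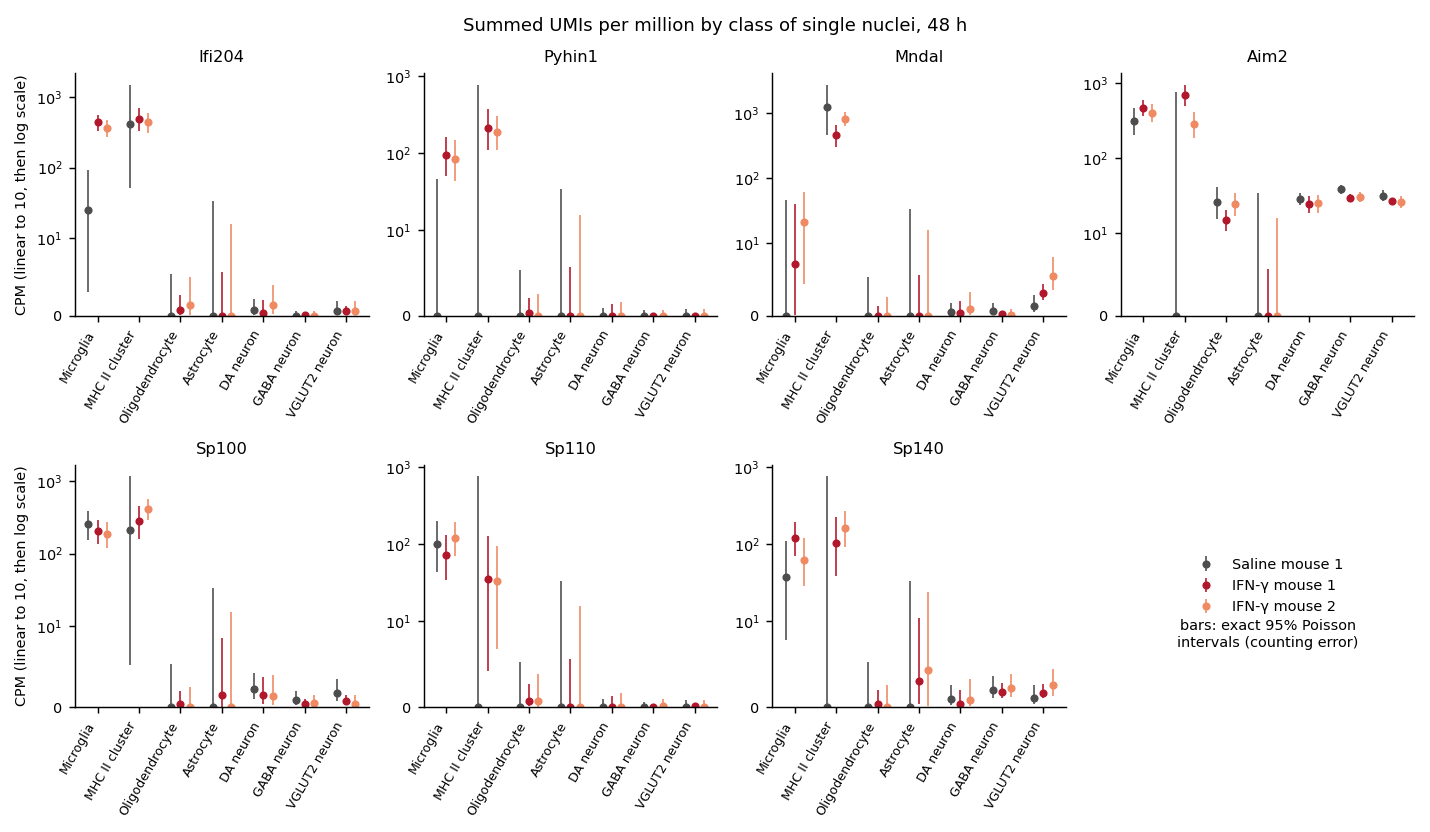
CPM of 7 members in each cell class of single nuclei, 1 point per mouse with exact 95% Poisson intervals, on an axis that is linear to 10 CPM and logarithmic above it. Ifi204 and Pyhin1 of IFN-γ mice stand highest in microglia and the MHC class II cluster, and Aim2 is the member also counted at 24.1 to 38.3 CPM in neurons.

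Outside these cells Ifi204 had at most 1.35 CPM in any neuron class and at most 1.39 CPM in oligodendrocytes, against 360 CPM or more in microglia of the IFN-γ mice. Its UMIs in the saline mouse and the IFN-γ mice were 3, 1 and 3 in dopamine, 0, 1 and 0 in GABA and 3, 7 and 3 in VGLUT2 neurons. Sp100 had log2 fold changes of −0.66, −0.90 and −1.38 in these classes, in that order. The higher levels of Ifi204 and Sp100 in NeuN+ wells at 48 h were thus not seen in single neurons, and the reason was not tested. Microglia and the MHC class II cluster held 89.0% and 91.0% of all Ifi204 UMIs of the IFN-γ mice, 96.2% and 96.7% of those of Pyhin1 and 69.8% and 87.5% of those of Sp100. The shares of Sp110 were 75.0% and 90.9%, of Mndal 40.9% and 72.0%, of Sp140 33.3% and 44.4% and of Aim2 12.3% and 16.3%. In the saline mouse these cells held 40.0% of 10 Ifi204 UMIs, 30.0% of 20 of Mndal, 44.7% of 47 of Sp100, 100% of 8 of Sp110, 12.5% of 24 of Sp140 and 4.54% of 551 of Aim2. Aim2 lay at 24.1 to 38.3 CPM in dopamine, GABA and VGLUT2 neurons and at 25.9, 14.8 and 24.2 CPM in oligodendrocytes. It had no UMI in astrocytes, where a count of 0 allows up to 4.61 CPM in the mouse with most astrocytes. Within each mouse no neuron class lay below oligodendrocytes, while microglia lay above both. The lower Aim2 level of NeuN+ saline wells was thus not seen between neurons and oligodendrocytes, and the reason was not tested. The Aim2 model overlaps the opposite-strand gene Cadm3 by 16817 bases without a shared exon, and the counts include introns. Cadm3 was at 58.8 to 82.5 CPM in the same neuron classes and at 7.20 CPM in microglia of IFN-γ mouse 1, and its part in the neuronal Aim2 count was not tested.

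Mndal was also counted in VGLUT2 neurons, at 1.34, 3.13 and 5.54 CPM (6, 35 and 26 UMIs), with a log2 fold change of 1.60 and an adjusted p of 0.915. A cluster of these neurons led by Hlf, picked out after its values were seen, held 5, 17 and 24 of the UMIs in 4, 97 and 5 nuclei. In IFN-γ mouse 2 its 24 UMIs lay in 2 nuclei. The remaining VGLUT2 neurons were at 0.226, 1.86 and 0.439 CPM. The background of genes called higher was 0% in VGLUT2 neurons, 0.0215% in GABA neurons, 0.0440% in dopamine neurons, 0.0841% in astrocytes and 0.578% in oligodendrocytes, and no member was called in these classes by edgeR or DESeq2. In VGLUT2 neurons 0 members were at an unadjusted p below 0.05 in the edgeR fit as described, and Mndal was with RLE factors, without the filter and with a coarser clustering.

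Around the members, the genes of the pathway were counted in 5 lists, which were chosen with earlier results of these data known. The filtered fit called 7.86%, 7.22%, 1.23% and 0.754% of all genes higher from 6 to 72 h in NeuN− wells. In NeuN+ wells it called 1.08% and 1.47% at 6 and 24 h, and its counts stand beside these shares. Calls named below as without the filter stand beside 1.70%, 2.24%, 0.244% and 0.203% from 6 to 72 h in NeuN− wells. In NeuN+ wells those shares were 0.571% and 0.950% at 6 and 24 h. Of 16 other genes of the PYHIN cluster 8 were in the table, and AI607873 was the 1 of them tested by the filtered fit in NeuN− wells at 6 h, where it rose by 2.63 (log2). Without the filter Ifi205 rose in NeuN− wells at 6 h (4.68) and 24 h (5.32) and in NeuN+ wells at 24 h (2.27), AI607873 in NeuN− wells at 24 h (2.35) and 72 h (5.46) and in NeuN+ wells at 24 h (5.58), and Pydc4, which encodes a pyrin domain alone, in NeuN+ wells at 24 h (3.83). Of 8 relatives of Sp100 and Sp140 5 were in the table and edgeR called none after IFN-γ, with or without the filter, nor did DESeq2. In the fit without filter 1 was at an unadjusted p below 0.05 in NeuN+ wells at 6 h, and 0 in the other comparisons. Among 14 inflammasome and DNA-sensing partners of Aim2 and Ifi204, 1 of 3 tested rose in NeuN− wells at 6 h, Casp4, the caspase of the non-canonical inflammasome (3.21). Without the filter Zbp1, a sensor of Z-form nucleic acids, rose at 24 h in NeuN− (3.4) and NeuN+ wells (5.21), and Gsdmd, the pore former of pyroptosis (3.89), and Il18, a cytokine that caspase-1 matures (1.79), rose in NeuN+ wells at 24 h.

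Of 12 PML body partners, 0 of 5 tested were called in NeuN− wells at 6 h, with a median log2 fold change of −0.015, and 0 of 9 in NeuN+ wells at 6 h and at 24 h. In each of these, 1 partner was at an unadjusted p below 0.05, and DESeq2 called 1, Pml in NeuN− wells at 6 h. Without the filter Pml, the scaffold of the body, rose in NeuN− wells at 6 h (2.74) and in NeuN+ wells at 24 h (1.19). Of 11 upstream genes of the IFN-γ pathway 5 of 5 tested rose in NeuN− wells at 6 h, among them Irf1 at 6.88, Stat2 at 3.11, Jak2 at 1.87 and Irf2 at 1.28. In NeuN+ wells 4 of 7 rose at 6 h, among them Irf1 at 6.24, Stat2 at 2.61 and Irf9 at 1.57. The counts at 24 h were 4 of 5 in NeuN− and 4 of 7 in NeuN+ wells, and at 48 and 72 h Stat2 alone was called in NeuN− wells (2.40 and 1.55). In oligodendrocytes of the single nuclei edgeR called 3 of 10 upstream genes tested, Irf1, Irf7 and Irf9 (fitted log2 values of 9.56, 7.53 and 3.4, which depend on the prior count where saline UMIs are few), where 0.578% of all genes were called higher, and DESeq2 none, with 5 at an unadjusted p below 0.05. In microglia neither edgeR nor DESeq2 called a gene of these lists. In edgeR, 3 genes of the PYHIN cluster, 1 inflammasome partner, 3 PML body partners and 3 upstream genes were at an unadjusted p below 0.05. In these nuclei AI607873 went from 37.9 CPM to 180 and 212 CPM.

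The genes whose wells ran most like a member's were taken by Pearson's r of log2(CPM + 1) over the 42 wells of a fraction, which share treatment groups and depth. For Ifi204 in NeuN− wells they were Nlrc5 (r = 0.87), Irgm2 (0.86) and Irf1 (0.85). Mndal ran most like Gbp7 (0.76), Laptm4a (0.75) and Erap1 (0.74) in NeuN− wells, and like Parp9 (0.88) and Gbp7 (0.86) in NeuN+ wells. Those of Sp100 were Ifi27 (0.69), Pid1 (0.67) and Lgals3bp (0.66) in NeuN− wells and Eif2ak2 (0.69), Tap1 (0.66) and Cd274 (0.66) in NeuN+ wells. For Aim2 they were Nras (0.63), Slc4a2 and Rbm39 in NeuN− wells and Ccdc81 (0.75), Aldh6a1 (0.70) and Lzts2 (0.68) in NeuN+ wells. Pyhin1, Sp110 and Sp140, with few counts, reached at most 0.59 (Slfn8), 0.58 (Lilrb4a) and 0.66 (Ccr9). Among the members themselves Ifi204 and Mndal had the highest r in NeuN− wells (0.59), and that of Ifi204 and Aim2 was −0.01.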

How the data were processed

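Per the labels and the study's methods, the authors sorted nuclei into wells of a plate, made 3′ end libraries, aligned reads to GRCm38 by STAR after trimming poly(A) (version not given in the sources used here) and collapsed reads to UMI counts per gene. For single nuclei (10x Chromium) the authors deposited counts over gene bodies with introns, after removing doublets and low-quality nuclei. Both tables hold counts that were not normalized. The fraction of a well came from a supplementary list of well barcodes. NeuN− wells held 20962 to 301445 and NeuN+ wells 277113 to 1684374 UMIs.

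Tests used R 4.3.3, edgeR 4.0.16 (limma 3.58.1) with filterByExpr, TMM, the quasi-likelihood F test and Benjamini-Hochberg adjustment over all genes tested. Genes were called at an adjusted p below 0.01 and a log2 fold change of more than 1 (0.5 between fractions). Nuclei were clustered in Python 3.11.15 (numpy 2.4.6, scikit-learn 1.9.0, leidenalg 0.10.2; 2000 variable genes, 30 components, 15 neighbours), named by marker genes, and summed per mouse, with calls limited to log2 fold changes of more than 3 in the fit and in each IFN-γ mouse. The SE of an edgeR value is its log2 fold change, without sign, over the square root of the F statistic, and not a fitted standard error. CPM were computed here on total counts. Ratios have exact conditional intervals, which cover counting error only. Alternatives were RLE factors, DESeq2 1.42.0, no filter, saline wells of all times and each well left out. The tests were checked on simulated counts in which the changed genes were drawn from the most abundant genes. That check says little about genes with few counts, as most members are. The named genes are the 8 members, called genes of 5 lists, and the 3 genes most correlated with each member whose mean is at least 5 CPM. Members and lists were chosen with earlier results of these data known. The values of 1 gene that these rules name are not reported here.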

Additional observations from a re-analysis of the deposited data

Results flagged for a closer look

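In 5 of 59 groups of wells with at least 10 counts of a member, 1 well stood far from the rest by its gap to the nearest well over the range of the group, where chance sets apart about 1 group in 20. All but 1 were IFN-γ wells of the NeuN+ fraction. At 48 h Ifi204 was at 9.02 CPM in well 4 (14 counts), where the next well had 3.71 CPM. In well 1 of the same group Sp100 was at 29.1 CPM (10 counts) against 8.86 CPM in the next, and Aim2 at 2.91 CPM (1 count) against 14.2 CPM, so this library stands apart for both genes. At 72 h Sp100 was at 5.01 CPM in well 1 (7 counts), with 3.0 CPM in the next. In NeuN− nuclei at 24 h Sp140 was at 60.3 CPM in well 3 (3 counts), with 18.6 CPM in the next. The cause of these values was not tested.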

How the results depend on the processing

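Over all alternatives 659 values of single members kept their direction and their side of the threshold, 13 lost a call, 1 gained one, 4 moved and 7 changed sign, and 230 counts of called members held while 33 moved. The filter on low counts sets how many members are tested. In NeuN− wells at 24 h the filtered edgeR fit tested 0 members, and 3 were called by DESeq2, 3 without the filter and 1 against saline wells of all times. At 72 h the count went from 0 to 1 without the filter. In NeuN+ wells at 6 h it went from 1 to 0 by DESeq2 and to 2 both without the filter and against all saline wells, and at 24 h from 0 to 3, 3 and 1. Between fractions the count rose from 1 to 7 (DESeq2) and 6 (no filter), and from 24 to 72 h from 1 to 2 in NeuN− and from 0 to 1 in NeuN+ wells under both. In microglia the 1 call, Ifi204, was 0 by DESeq2 (adjusted p = 0.115) and without the filter (adjusted p = 0.768, with 0 of 14419 genes called and 918 at an unadjusted p below 0.05), and Sp110 reversed from −0.09 to 0.082 there. RLE factors moved no count.

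With each well left out, 1 to 2 members were called in NeuN− wells at 6 h, 0 to 2 in NeuN+ wells at 6 h and 0 to 1 at 24 h. The Mndal call in NeuN+ wells at 6 h was lost without saline well 3 or 4. Values near 0 changed sign: Aim2 in NeuN+ wells at 72 h (−0.10 to 0.040), and the interactions of Ifi204 at 6 h (−1.38 to 0.36) and 48 h (−0.60 to 1.25) and of Mndal at 48 h (−0.15 to 0.49). Leaving out wells without the filter, and microglia with the MHC class II cluster, were chosen after seeing the data. A coarser clustering named no microglia and gave no value. No paired analysis was possible because the labels number no replicates across groups. Few counts per group limit the precision for Pyhin1, Sp110 and Sp140. The cause of the changes other than the filter was not tested.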
